A study of Mus musculus with 18 samples.

Results

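The 28 genes of cholesterol synthesis and transport described here were named by symbol, and their rows were read from the deposited RNA-seq count tables of mouse embryonic stem cells (ESCs) and of epiblast-like cells (EpiLCs). All 28 were in both tables, among 13104 genes in ESCs, 13717 in EpiLCs and 12410 in both. They comprise 7 genes of the mevalonate pathway (Acat2, Hmgcs1, Mvk, Pmvk, Mvd, Idi1 and Fdps), 11 that carry squalene synthesis and its conversion to cholesterol (Fdft1, Sqle, Lss, Cyp51, Tm7sf2, Msmo1, Nsdhl, Hsd17b7, Ebp, Sc5d and Dhcr7), 5 of sterol sensing (Insig1, Insig2, Scap, Srebf1 and Srebf2) and 5 of sterol transport (Stard4, Npc1, Npc2, Abca1 and Abcg1). The rule for choosing them used no measured value, but they were chosen with earlier results of these data known.

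RNA was measured in ESCs and EpiLCs that received 100 nM Δ9-THC or the vehicle, with 3 biological replicates in each of 4 groups and 12 libraries in all. ESCs model the naive cells of the embryo before implantation, and EpiLCs, derived from them in culture with activin A and bFGF, model the primed epiblast. The media differed further, with LIF for ESCs and added KnockOut Serum Replacement for EpiLCs. Per the methods, every group came from an ESC line with the reporters Blimp1::mVenus and Stella::ECFP, for which a female and a male clone are named (female cells are stated for the growth data, and the clone that was sequenced is not stated), and the vehicle was ethanol in the medium of each stage. The exposure was continuous, so Δ9-THC EpiLCs descended from Δ9-THC ESCs. What a culture shows is the average over its cells, and in such bulk RNA fewer cells of a type and less RNA per cell cannot be told apart.

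Mammalian cells build cholesterol from acetyl-CoA through the mevalonate pathway, which also supplies isoprenoids, and then through squalene and a series of sterols. When sterols are scarce, Scap escorts the SREBP transcription factors from the endoplasmic reticulum to the Golgi for activation, and the Insig proteins hold the complex back when sterols are plentiful. Cholesterol released from lysosomes by Npc1 and Npc2 is moved onwards by carriers such as Stard4, and Abca1 and Abcg1 export it from the cell.

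The library totals ranged from 23427551 to 32096698 counts. Levels are given as CPM, counts scaled to library size with the TMM method over the 12 libraries, with the SD over 3 replicates where a mean is printed. The authors had adjusted the counts for batch effects before deposit, and in the adjusted counts vehicle and Δ9-THC libraries of the same replicate number deviated from their group means in opposite directions (Pearson's r across genes of -0.987 to -0.977 in ESCs and -0.985 to -0.979 in EpiLCs). The printed SDs, SEs and p-values may therefore understate the spread among cultures. The cell type labels were checked against markers. The 10 markers of naive pluripotency summed to 4380 to 4814 CPM in the ESC libraries and to 334 to 390.1 CPM in the EpiLC libraries. The 6 primed markers, of which Fgf5 was not in the ESC table, summed to 153 to 174 CPM in ESCs and to 1734 to 2114 CPM in EpiLCs. Of 9 markers of other lineages, 3 were in each table, at a sum of 7.40 to 10.8 CPM in ESCs and of 14.3 to 22.005 CPM in EpiLCs. These sums cover different genes, namely Gata4, T and Sox1 in ESCs and Gata4, Pax6 and Sox1 in EpiLCs. Some markers moved with the exposure in ESCs. The primed marker Pou3f1 fell from 3.59, 3.96 and 4.01 CPM to 2.17, 1.87 and 1.83 CPM (log2(fold-change) -0.96, edgeR adjusted p = 0.0265). Otx2, also primed, lay above the vehicle without overlap (0.22, edgeR adjusted p = 0.122), and the other primed markers in the ESC table overlapped. Of the 10 naive markers Klf2 and Esrrb lay below and Tfcp2l1 above the vehicle without overlap, where 33% of all genes did not overlap in ESCs. In EpiLCs 3 naive markers lay above without overlap, and Pou5f1, a marker of both cell types, lay below. There 21.8% of all genes did not overlap. The part of these markers in the results was not tested.

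SREBP and the factor NF-Y are known to act together at promoters of this pathway, so 6 promoters are shown first. Mvd, Lss, Ebp and Abca1 differed most between the cell types among the genes with a window. Hmgcs1 holds the only match to the core of the sterol regulatory element and Mvk the largest number of CCAAT boxes. RefSeq promoter windows of build GRCm38.p6, from 250 bases before to 50 bases after a gene's start, covered 22 of the 28 genes. Stard4, Npc1, Fdps, Fdft1, Abcg1 and Sqle had no window. The stretches run 5′ to 3′ on the gene's strand over the 150 bases before the start, and capitals mark TCACNCCAC, the core of the sterol regulatory element, and CCAAT, the box bound by NF-Y, on either strand, so that ATTGG is a CCAAT box on the opposite strand. Abca1 has neither. The lines give, in this order, Hmgcs1 (chr13:119690201-119690350, plus strand), Mvk (chr5:114444119-114444268, plus strand), Mvd (chr8:122443423-122443572, minus strand), Lss (chr10:76531455-76531604, plus strand, 17 bases of it exonic), Ebp (chrX:8193513-8193662, minus strand) and Abca1 (chr4:53159896-53160045, minus strand).
Hmgcs1: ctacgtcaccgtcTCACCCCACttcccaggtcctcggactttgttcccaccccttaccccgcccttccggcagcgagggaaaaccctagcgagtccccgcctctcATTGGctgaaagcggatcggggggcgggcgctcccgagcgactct
Mvk: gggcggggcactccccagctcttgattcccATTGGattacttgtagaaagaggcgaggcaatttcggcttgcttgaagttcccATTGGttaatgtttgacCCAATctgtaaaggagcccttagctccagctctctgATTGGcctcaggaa
Mvd: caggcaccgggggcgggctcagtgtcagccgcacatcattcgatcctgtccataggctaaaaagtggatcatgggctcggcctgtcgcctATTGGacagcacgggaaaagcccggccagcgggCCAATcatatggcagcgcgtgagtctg
Lss: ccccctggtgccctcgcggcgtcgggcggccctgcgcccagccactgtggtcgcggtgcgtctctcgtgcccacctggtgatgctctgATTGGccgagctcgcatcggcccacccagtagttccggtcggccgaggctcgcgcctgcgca
Ebp: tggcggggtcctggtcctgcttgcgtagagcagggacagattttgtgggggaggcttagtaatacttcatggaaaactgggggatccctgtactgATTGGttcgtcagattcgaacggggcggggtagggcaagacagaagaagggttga
Abca1: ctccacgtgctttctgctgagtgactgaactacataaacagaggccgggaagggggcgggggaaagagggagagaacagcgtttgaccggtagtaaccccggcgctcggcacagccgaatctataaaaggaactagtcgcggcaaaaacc

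The sterol regulatory element core occurred in the window of 1 of the 22 genes, Hmgcs1, which encodes the cytosolic HMG-CoA synthase, with its first base at -137 from the start. This share of 4.55% compares with 1.44% of the 27025 genes with windows and with 1.43% of the 9447 such genes that were in both count tables. At least 1 CCAAT box was found for 19 of the 22 genes (86.4%), against 41.1% of all genes with windows and 44% of those in both tables. The 3 genes without it were Acat2, Scap and Abca1. A gene counted if any of its windows held a match. By window the CCAAT share was 66.7% of 30, against 37.4% of all 32851 windows. Mvk, which encodes mevalonate kinase, held 5 CCAAT boxes between -173 and -14, 4 of them in the stretch printed above. The E-box CACGTG was in the windows of 6 genes (27.3%), namely Hsd17b7, Sc5d, Dhcr7, Insig1, Scap and Abca1, against 8.09% of all genes with windows and 12.2% of those in both tables. In the windows of the 22 genes no match of one motif overlapped a match of another, and a match describes the letters of the window and not bound protein. Only exact matches were counted, so elements with other letters were not sought.

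**Figure D1:**
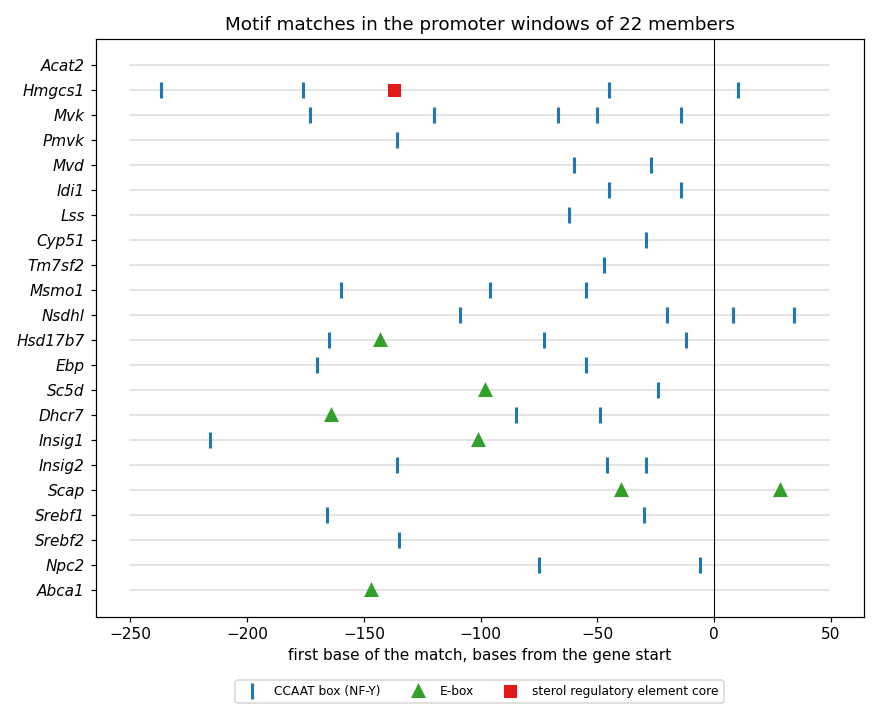
Matches of 3 motifs in the promoter windows of 22 genes, by the first base of the match in bases from the gene start (x axis). The ticks for CCAAT occur in 19 genes, the triangles for the E-box in 6 and the square for the sterol regulatory element core in Hmgcs1 alone.

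Levels of the 28 genes spanned a wide range in both cell types. Per kilobase of exon, which allows comparison between genes, Insig1 had the highest level of the 28 in vehicle ESCs (64.5 CPM per kb), followed by Acat2 (57.1) and Fdft1 (49.6). Insig1 encodes an endoplasmic reticulum anchor of Scap, Acat2 the cytosolic thiolase at the entry of the pathway, and Fdft1 squalene synthase. In vehicle EpiLCs the order was led by Acat2 (86.9 CPM per kb), Mvd (68.6) and Fdft1 (55.2). The lowest levels were those of Fdps in ESCs (0.650 CPM per kb) and of Abca1 in EpiLCs (0.130 CPM per kb). On the same scale Acat2 stood at percentile 93.7 of all genes in vehicle ESCs and Abca1 at percentile 1.05 in vehicle EpiLCs.

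Some members share sequence with other loci, and the authors kept only reads that mapped to a single place. Fdps matched 4 processed pseudogenes, with 98.9% identity over 1062 bases for Gm3571, and 26.7% of its exonic bases lie in other genes as well. Idi1 matched Gm13502 with 100% identity over 684 bases, Fdft1 matched Gm6781 with 97.4% over 1249 bases, and Acat2 matched Acat3 with 97.7% over 1477 bases and Tcp1 with 98.7% over 445 bases. Tcp1 held 11807 to 28401 counts a library, and Acat3 was in neither table. The levels of these 4 genes are therefore uncertain, and that of Fdps most of all, since its lowest library held 67 counts.

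**Figure D2:**
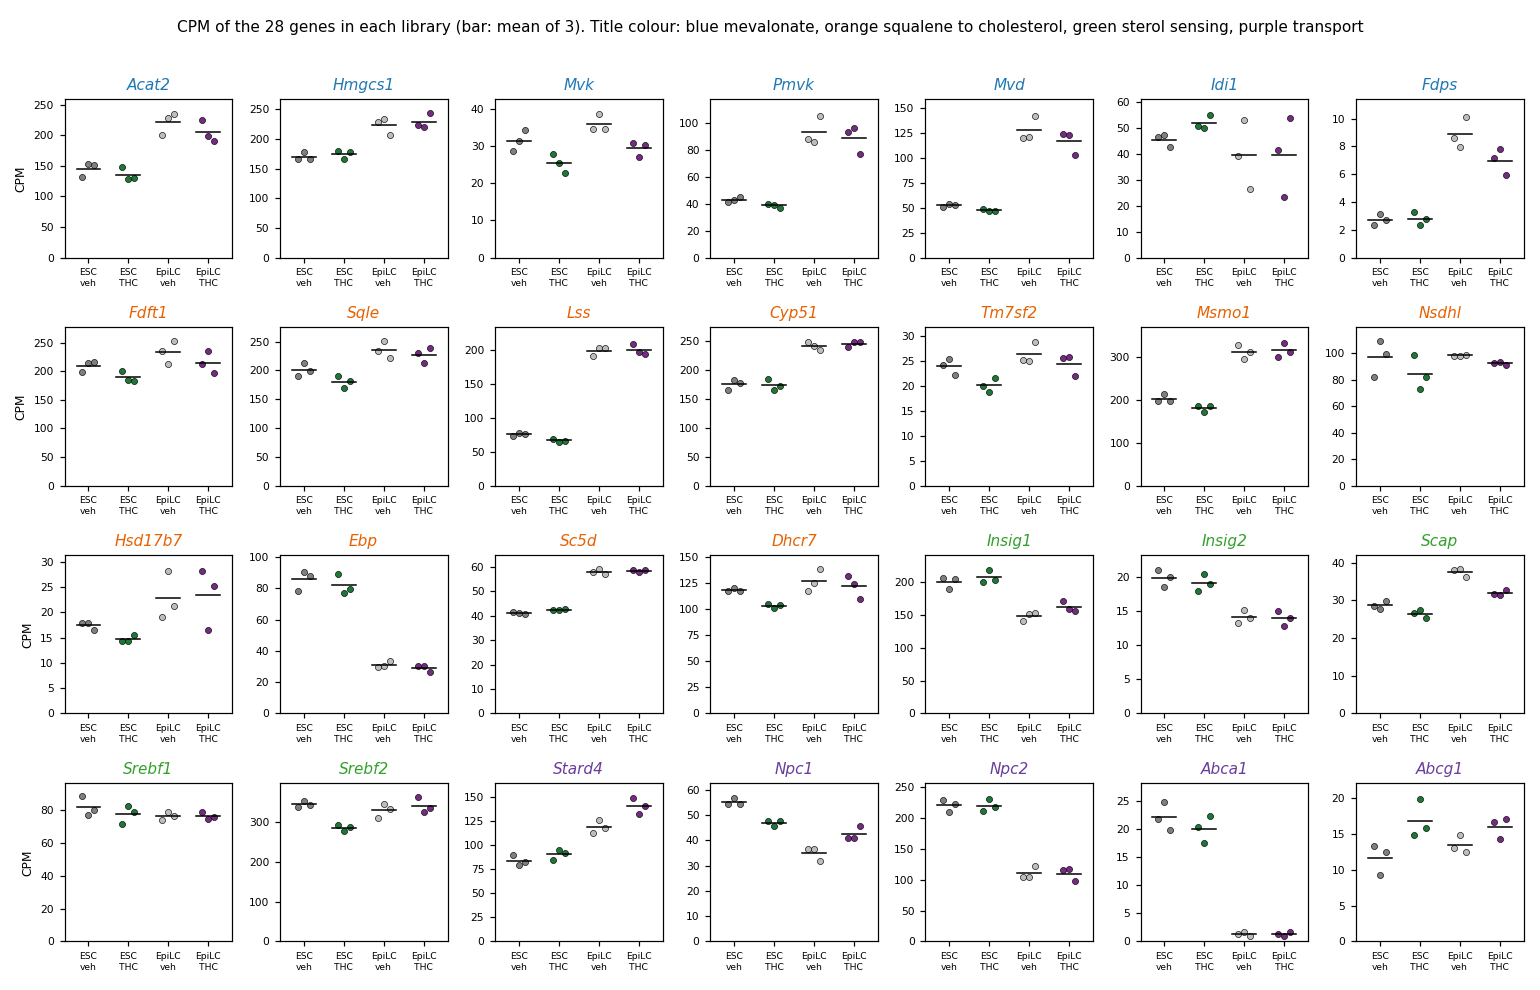
CPM of each of the 28 genes (y axis, linear from 0) in the 3 vehicle and 3 Δ9-THC (THC) libraries of ESCs and EpiLCs, 1 point a library and the bar the mean of 3. Abca1 lies at 17.5 to 24.8 CPM in ESCs and at 0.976 to 1.76 CPM in EpiLCs, and Srebf2 in Δ9-THC ESCs lies below its vehicle libraries.

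In ESCs exposed to Δ9-THC, 4 of the 28 genes fell and 0 rose at a Benjamini-Hochberg adjusted p-value of at most 0.05 (edgeR's quasi-likelihood test). They were Srebf2, Npc1, Dhcr7 and Lss, and their log2(fold-change) values lay between -0.25 and -0.17. The share of all genes called in this comparison was 6.91%, with 3.55% lower and 3.37% higher. Over the 28 genes, 19 had a log2(fold-change) below 0, against 48.9% of all genes, and the median was -0.11, against 0.0041 for all genes. The calls were lost under other settings. Without any 1 of the 6 ESC libraries 0 members passed, with edgeR adjusted p-values of 0.0721 to 0.149 for these 4 genes, and with offsets for GC content and gene length 0 passed as well. With the replicate number as a block 0 passed either (edgeR adjusted p-values of 0.414 to 0.431), and 5 of all genes did, against 906 without the block. DESeq2 called 6 of the 28 genes and 5.79% of all genes.

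Srebf2 (ENSMUSG00000022463, chr15:82147181-82205379) encodes SREBP-2, the transcription factor that drives the genes of cholesterol synthesis. Its level in ESCs was 337.9, 354.3 and 343.3 CPM with the vehicle and 292.6, 278.8 and 287.8 CPM with Δ9-THC. The 3 exposed libraries all lay below the 3 vehicle libraries. The value of the log2(fold-change) in edgeR was -0.25 (SE 0.032, Benjamini-Hochberg adjusted p = 0.0283), and -0.14 with the GC and length offsets (adjusted p = 0.173). In EpiLCs, Srebf2 had 310.9, 345.7 and 334.1 CPM with the vehicle and 364.3, 326.1 and 335.4 CPM with Δ9-THC, and the groups overlapped (log2(fold-change) 0.050, SE 0.075, edgeR adjusted p = 0.794).

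The other members of the sensing machinery did not pass the test in ESCs. Scap, the escort of SREBP, had 28.4, 27.8 and 29.9 CPM with the vehicle and 26.7, 27.3 and 25.4 CPM with Δ9-THC, without overlap (log2(fold-change) -0.099, SE 0.046, edgeR adjusted p = 0.207). Insig1 (0.071), Insig2 (-0.038) and Srebf1 (-0.060), which encodes SREBP-1, had overlapping groups. The 5 genes summed to 675 ± 8.14 CPM (SD, n = 3) with the vehicle and to 617 ± 9.29 CPM with Δ9-THC, and Srebf2 held the largest part of this sum in every library.

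Npc1 (ENSMUSG00000024413) encodes the membrane protein that exports cholesterol from late endosomes and lysosomes. In ESCs it had 54.3, 56.7 and 54.2 CPM with the vehicle and 47.6, 45.5 and 47.6 CPM with Δ9-THC. The groups did not overlap, with a log2(fold-change) of -0.22 (SE 0.037, edgeR adjusted p = 0.0325). In EpiLCs the order of the groups was opposite. Npc1 had 36.7, 36.6 and 31.9 CPM with the vehicle and 40.7, 40.8 and 45.7 CPM with Δ9-THC, again without overlap, and the log2(fold-change) of 0.27 did not pass (SE 0.084, edgeR adjusted p = 0.227) and was 0.14 with the GC and length offsets. Npc1 was the 1 gene of the 28 whose libraries separated in opposite directions in the cell types, a pattern that 1.95% of all genes showed, and 1.31% in the same order as Npc1.

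Its lysosomal partner Npc2 had no such separation, with means of 221 ± 9.73 and 220.5 ± 9.62 CPM in ESCs and of 111 ± 10.7 and 110.3 ± 11.1 CPM in EpiLCs (SD, n = 3, vehicle and Δ9-THC). The cytosolic sterol carrier Stard4 had, in ESCs, 89.6, 79.8 and 82.7 CPM with the vehicle and 84.7, 95.03 and 91.9 CPM with Δ9-THC. These groups overlapped, with a log2(fold-change) of 0.12 (SE 0.059, edgeR adjusted p = 0.219). In EpiLCs, Stard4 had 113, 126 and 118 CPM with the vehicle and 149, 132 and 141 CPM with Δ9-THC, with all exposed libraries above (log2(fold-change) 0.24, SE 0.072, edgeR adjusted p = 0.218).

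Abcg1 (ENSMUSG00000024030, chr17:31057675-31117988), a transporter for the export of cholesterol, had the largest log2(fold-change) of the 28 genes in ESCs. Its levels were 13.2, 9.27 and 12.4 CPM with the vehicle and 14.8, 19.9 and 15.9 CPM with Δ9-THC. Every exposed library was above the vehicle libraries, but the value of 0.55 (SE 0.16) did not pass with edgeR (adjusted p = 0.0844), while DESeq2's Wald test called it (adjusted p = 0.0120). In EpiLCs the levels were 12.98, 14.8 and 12.5 CPM with the vehicle and 16.6, 14.3 and 17.0 CPM with Δ9-THC, which overlapped (0.25, SE 0.10, edgeR adjusted p = 0.326). The other export transporter, Abca1, had 21.7, 24.8 and 19.7 CPM in vehicle ESCs and 20.4, 17.5 and 22.2 CPM in Δ9-THC ESCs, with overlap (-0.13, SE 0.12, edgeR adjusted p = 0.508).

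Of the 11 genes from squalene to cholesterol, 9 had a log2(fold-change) below 0 in ESCs, with a median of -0.15, and 2 passed the test. Dhcr7 (ENSMUSG00000058454, chr7:143823145-143848410) encodes the reductase that completes a last step to cholesterol. It had 117.0, 120.4 and 117.6 CPM with the vehicle and 104.4, 101.4 and 103.7 CPM with Δ9-THC, without overlap (log2(fold-change) -0.18, SE 0.028, edgeR, Benjamini-Hochberg adjusted p = 0.0301). Lss (ENSMUSG00000033105, chr10:76531588-76557138) encodes lanosterol synthase, which closes the rings of the first sterol. It had 73.7, 77.8 and 76.2 CPM with the vehicle and 68.7, 64.9 and 66.3 CPM with Δ9-THC, also without overlap (-0.17, SE 0.037, edgeR adjusted p = 0.0454).

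Tm7sf2, a sterol reductase, had 24.2, 25.5 and 22.3 CPM in vehicle ESCs and 19.9, 18.9 and 21.6 CPM in Δ9-THC ESCs (log2(fold-change) -0.24, SE 0.071, edgeR adjusted p = 0.0874). Hsd17b7, which reduces a keto group of the sterols, had 17.9, 17.9 and 16.5 CPM with the vehicle and 14.3, 14.3 and 15.5 CPM with Δ9-THC (-0.23, SE 0.059, edgeR adjusted p = 0.0613). In both genes the groups did not overlap. The squalene epoxidase gene Sqle (-0.14) and the methylsterol oxidase gene Msmo1 (-0.15) also had all exposed libraries below the vehicle libraries, Sc5d, a sterol desaturase, had them above (0.066), and Fdft1 (-0.13), Nsdhl (-0.19), Ebp (-0.050) and Cyp51 (0.0096) overlapped. The adjusted p-values of these 7 genes in edgeR's test were 0.110 to 0.933.

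The mevalonate genes held 0 calls in ESCs with edgeR, 4 unadjusted p-values under 0.05 and 1 call with DESeq2. That gene was Mvk (chr5:114444269-114460591), whose levels were 28.6, 31.3 and 34.4 CPM with the vehicle and 27.9, 25.5 and 22.8 CPM with Δ9-THC. Its log2(fold-change) of -0.29 was the lowest of the 28 without offsets (SE 0.092, edgeR adjusted p = 0.0985, DESeq2 adjusted p = 0.0442). Idi1, the isomerase of the isoprenoid units, had 46.5, 47.3 and 42.8 CPM with the vehicle and 50.8, 49.9 and 55.0 CPM with Δ9-THC, all exposed libraries being higher (0.20, SE 0.057, edgeR adjusted p = 0.0762). Pmvk and Mvd, which encode the next kinase and the decarboxylase after Mvk, each had a log2(fold-change) of -0.13 without overlap, and Acat2 (-0.083), Hmgcs1 (0.048) and Fdps (0.040) overlapped.

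Libraries did not overlap for 15 of the 28 genes in ESCs, 12 of them below and 3 above the vehicle, where 33% of all genes did not overlap, 18.8% below and 14.2% above. Of the 28, 13 had unadjusted p-values under 0.05, 11 with lower and 2 with higher levels, against 28.7% of all genes. In ESCs, genes of higher GC content had lower log2(fold-change) values (Spearman's rho -0.545 over 13083 genes that are not independent of each other). The median GC content of the 28 genes, 49.5%, was close to the 50.1% of the genes in both tables. Among the 28, GC content ran from 41.1% (Idi1) to 59.4% (Srebf1). The 4 called genes had 57.1% (Srebf2), 52.3% (Dhcr7), 50.2% (Lss) and 47.1% (Npc1). With the GC and length offsets the median log2(fold-change) of the 28 genes was -0.071, with 20 of them below 0 and 0.0023 as the median of all genes, and the value for Mvd became 0.0027. Other values were smaller with the offsets, that of Mvk at -0.17, of Tm7sf2 at -0.16, of Scap at -0.0073, of Idi1 at 0.053 and of Stard4 at 0.059, and the lowest was then that of Hsd17b7 at -0.28.

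**Figure D3:**
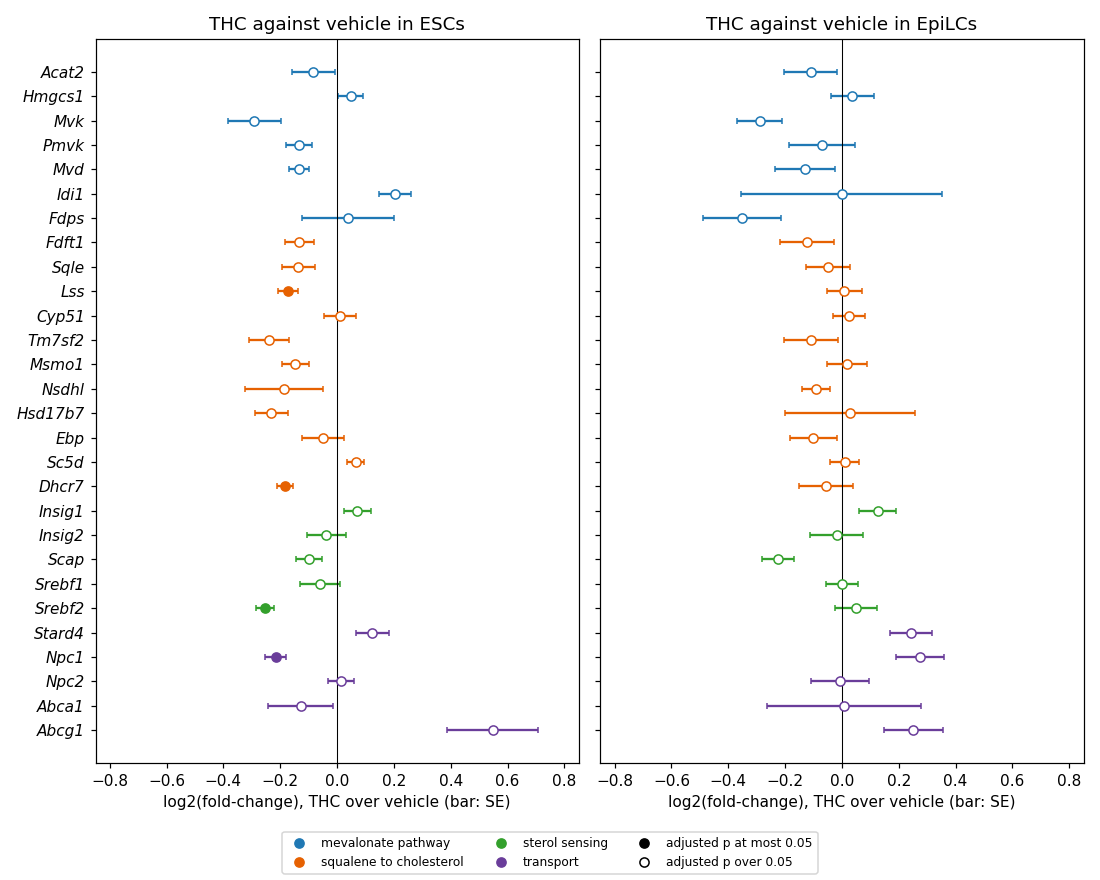
The log2(fold-change) of Δ9-THC (THC) over vehicle (x axis) with its SE for the 28 genes in ESCs (left) and EpiLCs (right), by role in colour, filled where the edgeR adjusted p-value is at most 0.05. The filled points are Lss, Dhcr7, Srebf2 and Npc1 in ESCs at -0.17 to -0.25, and no point is filled in EpiLCs.

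In EpiLCs, 0 of the 28 genes passed with edgeR's quasi-likelihood test or with DESeq2, where edgeR called 0 of all genes (0%) and DESeq2 87 (0.634%). The smallest edgeR adjusted p-value of the 28 was 0.197, and 6 had an unadjusted p-value under 0.05 (15.1% of all genes), 3 in each direction. The log2(fold-change) was below 0 for 16 genes (49.3% of all genes), with a median of -0.0040 against 0.0030 for all genes. With the GC and length offsets 21 of the 28 lay below 0, with a median of -0.048. In EpiLCs too, genes of higher GC content had lower log2(fold-change) values (Spearman's rho -0.31 over 13696 genes). Libraries did not overlap for 7 genes, Insig1, Stard4 and Npc1 above the vehicle and Mvk, Fdps, Nsdhl and Scap below, against 21.8% of all genes.

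Mvk had 34.6, 38.6 and 34.5 CPM in vehicle EpiLCs and 30.7, 27.1 and 30.3 CPM in Δ9-THC EpiLCs, a log2(fold-change) of -0.29 (SE 0.081, edgeR adjusted p = 0.205), which was -0.19 with the offsets. Scap had 37.9, 38.2 and 36.0 CPM with the vehicle and 31.6, 31.5 and 32.8 CPM with Δ9-THC (-0.23, SE 0.057, edgeR adjusted p = 0.197). These 2 genes were the ones of the 28 whose exposed libraries lay below the vehicle libraries in both cell types, as did 2.98% of all genes, and 0 of the 28 lay above in both (2.01% of all genes). Fdps, which encodes farnesyl diphosphate synthase, had 8.63, 7.96 and 10.2 CPM with the vehicle and 7.16, 7.78 and 5.98 CPM with Δ9-THC (-0.35, SE 0.14, edgeR adjusted p = 0.308), the lowest value of the 28 in EpiLCs and one of the genes with pseudogene copies.

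Idi1 and Hsd17b7 varied more among EpiLC replicates than between the exposures. Idi1 had 39.2, 53.2 and 26.4 CPM with the vehicle and 41.4, 23.3 and 54.0 CPM with Δ9-THC, so each group spanned the other (log2(fold-change) -0.0015, SE 0.35). Hsd17b7 had 19.1, 28.2 and 21.3 CPM with the vehicle and 28.3, 16.6 and 25.2 CPM with Δ9-THC (0.029, SE 0.23). In ESCs the SD of Idi1 was 2.43 to 2.71 CPM within a group, and in EpiLCs it was 13.4 to 15.4 CPM.

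An interaction term, from a fit of the 12 libraries in 4 groups, compared the effect of Δ9-THC in EpiLCs with that in ESCs. With edgeR 0 of the 28 genes passed, where 0.0322% of all genes did and 0.00806% with a difference below 0. The difference was below 0 for 8 of the 28 (47.1% of all genes), 3 had an unadjusted p-value under 0.05 (13.7% of all genes), and DESeq2 called 2, where it called 133 of all genes (1.07%). The largest difference, EpiLCs minus ESCs on the log2 scale, was that of Npc1 at 0.50 (SE 0.096, edgeR adjusted p = 0.0644, DESeq2 adjusted p = 0.0013). Srebf2 followed at 0.32 (SE 0.084, edgeR adjusted p = 0.135, DESeq2 adjusted p = 0.0393), and at 0.19 with the offsets. The value for Hsd17b7 was 0.28 (SE 0.25, edgeR adjusted p = 0.674). At the other end were Fdps at -0.38 (SE 0.22, edgeR adjusted p = 0.489), Abcg1 at -0.28 (SE 0.20, edgeR adjusted p = 0.582) and Idi1 at -0.19 (SE 0.37, edgeR adjusted p = 0.874). Without 1 library the value ranged from 0.12 to 0.47 for Hsd17b7, from -0.38 to -0.14 for Abcg1 and from -0.48 to 0.081 for Idi1. Lss, the third gene with an unadjusted p-value under 0.05, had a difference of 0.20 (SE 0.074, edgeR adjusted p = 0.273), which was named after its value was seen.

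Levels in the cell types were set side by side without a test, because the authors adjusted the 2 tables separately and any difference between those adjustments is part of the ratio. The media differed as well, so cell type and medium cannot be told apart in the ratios. A log2 ratio of group means of more than 1 in size was counted as a difference. In vehicle libraries 4 of the 28 genes were higher in EpiLCs by this measure (11.2% of all genes were) and 2 were lower (10.5%). The same counts, 4 and 2, were obtained in Δ9-THC libraries, where 11.5% and 9.3% of all genes were past the measure. The median log2 ratio of the 28 genes was 0.20 in vehicle libraries and 0.26 in Δ9-THC libraries, against 0.0024 and -0.00077 for all genes.

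Fdps had the highest ratio with the vehicle, with 2.36, 3.15 and 2.70 CPM in ESCs and the EpiLC values given above, a log2 ratio of 1.70, and of 1.32 with Δ9-THC. Lss, at 73.7 to 77.8 CPM in vehicle ESCs, had 190.7, 202.5 and 203.7 CPM in vehicle EpiLCs and 209.2, 197.2 and 193.7 CPM in Δ9-THC EpiLCs. Its log2 ratios of 1.39 and 1.59 are folds of 2.62 and 3.00.

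Mvd (chr8:122433601-122443422), the mevalonate diphosphate decarboxylase gene, had 51.1, 53.6 and 53.0 CPM in vehicle ESCs and 48.7, 46.4 and 47.0 CPM in Δ9-THC ESCs. In EpiLCs it had 119.9, 120.7 and 142.1 CPM with the vehicle and 123.7, 123.4 and 102.6 CPM with Δ9-THC, log2 ratios of 1.28 and 1.30. Pmvk (chr3:89454541-89469013), the phosphomevalonate kinase gene, had 41.5, 42.5 and 44.7 CPM in vehicle ESCs and 88.2, 85.9 and 105.2 CPM in vehicle EpiLCs, a log2 ratio of 1.12, and of 1.20 with Δ9-THC. Every EpiLC library of these 4 genes lay above every ESC library of the same exposure. With GC and length offsets over the 12 libraries, Pmvk in vehicle libraries had a ratio of 0.94, under the measure.

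The largest ratio of the 28 was that of Abca1 (chr4:53030787-53159895), which had 1.39, 1.67 and 0.976 CPM in vehicle EpiLCs and 1.34, 0.992 and 1.76 CPM in Δ9-THC EpiLCs. Beside the 17.5 to 24.8 CPM of the ESC libraries these are log2 ratios of -4.03 and -3.88, folds of 16.4 and 14.7. The lowest EpiLC library held 22 counts of Abca1, so counting error adds to its spread. Ebp (chrX:8185329-8193512), a sterol isomerase, had 78.4, 90.3 and 88.1 CPM in vehicle ESCs and 29.6, 30.0 and 33.5 CPM in vehicle EpiLCs, a log2 ratio of -1.46. With Δ9-THC it had 89.1, 77.0 and 79.3 CPM in ESCs and 30.3, 30.1 and 26.5 CPM in EpiLCs, a ratio of -1.50. Npc2 lay just inside the measure, with ratios of -0.996 in vehicle and -0.999 in Δ9-THC libraries.

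With the vehicle 16 of the 18 synthesis genes stood higher in EpiLCs, where 6220 of all 12410 genes did. Of the 7 mevalonate genes, 6 had a ratio above 0 in both exposures, with Idi1 as the exception (-0.20 and -0.39, and 0.021 with the vehicle when EpiLC vehicle replicate 3 was left out). Of the 11 genes from squalene to cholesterol, 10 did, with Ebp as the exception. Fdft1 (0.15), Tm7sf2 (0.14), Dhcr7 (0.098) and Nsdhl (0.020) overlapped between the cell types with the vehicle, and Nsdhl reached -0.086 without 1 library. Of the 5 sensing genes, Scap was above 0 with the vehicle (0.38) and Insig1 (-0.43) and Insig2 (-0.49) were below without overlap, while Srebf1 (-0.10) and Srebf2 (-0.064, and 0.0048 with the offsets) overlapped between the cell types. Of the 5 transport genes, Stard4 (0.50) and Abcg1 (0.20) were above 0 and Npc1, Npc2 and Abca1 below. In vehicle libraries the cell types did not overlap for 14 genes higher in EpiLCs (37.1% of all genes) and 6 lower (38.3%), and in Δ9-THC libraries for 16 higher (36.6%) and 5 lower (37.7%).

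Summed over the 18 enzymes, the level was 1738 ± 81.1 CPM (SD, n = 3) in vehicle ESCs and 2333 ± 29.1 CPM in vehicle EpiLCs, and with Δ9-THC 1614 ± 78.5 and 2267 ± 38.8 CPM. The sum of the 5 transport genes was 394 ± 13.7 CPM in vehicle ESCs and 279 ± 9.12 CPM in vehicle EpiLCs, and Npc2, at 221 and 111 CPM, made up most of this difference, while Stard4 and Abcg1 were higher in EpiLCs. In EpiLCs the transport sum was 302 to 323 CPM with Δ9-THC, above the 269 to 286 CPM of the vehicle libraries, while in ESCs it was 379.6 to 408.8 and 380.8 to 408.1 CPM. The sum for squalene to cholesterol in ESCs was 1185 to 1306 CPM with the vehicle and 1082 to 1198 CPM with Δ9-THC, which overlapped.

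**Figure D4:**
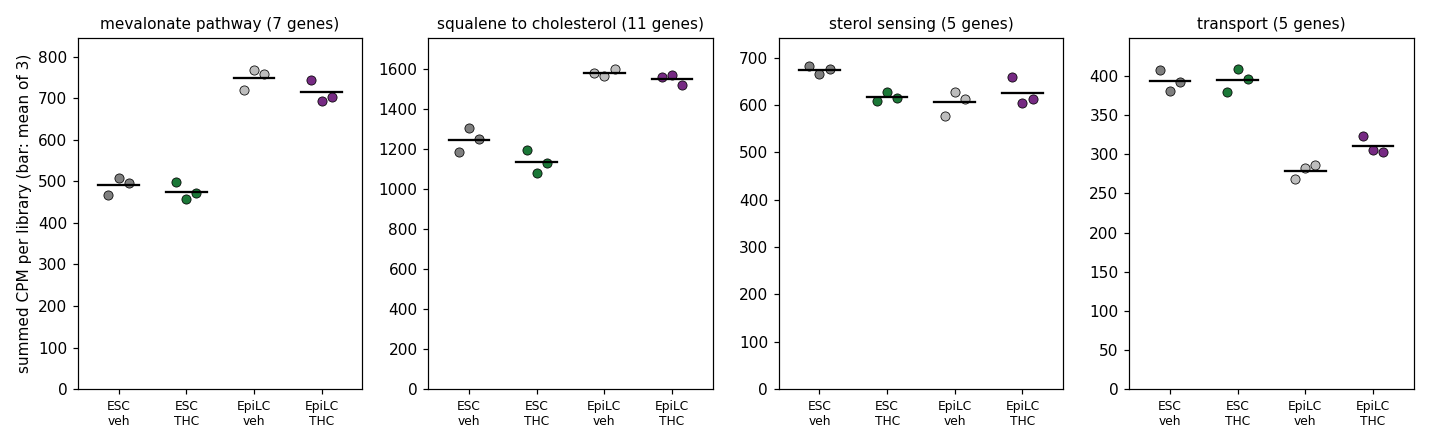
CPM summed over the genes of each role (y axis, linear from 0) in each library of the 4 groups (THC is Δ9-THC), with the mean of 3 as the bar. The sums for both synthesis groups are higher in EpiLCs (mevalonate 749 against 491 CPM with the vehicle), and that for transport, in which Npc2 is the largest part in ESCs, is lower.

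**Figure D5:**
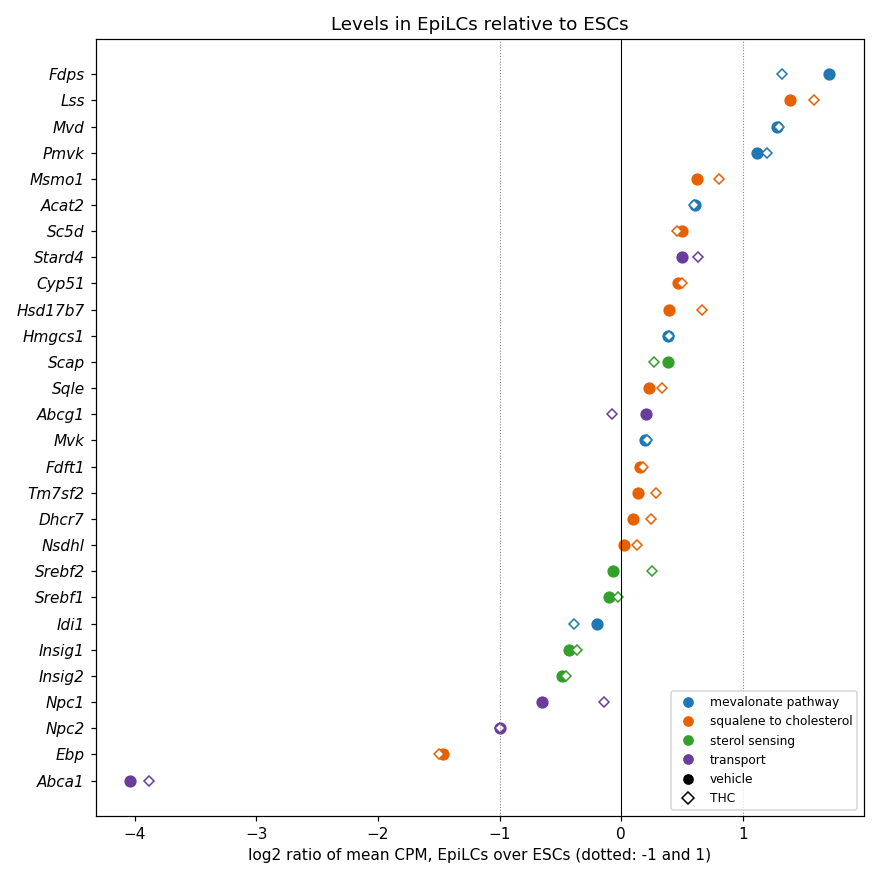
The log2 ratio of mean CPM, EpiLCs over ESCs (x axis), for each of the 28 genes in vehicle (filled) and Δ9-THC libraries (THC, open), with dotted lines at -1 and 1. Fdps, Lss, Mvd and Pmvk lie past 1 and Ebp and Abca1 past -1 in both exposures.

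Genes of neighbouring pathways, in 4 lists, were read from the same fits, in which 6.91% of all genes were called in ESCs. In ESCs, 1 of 10 genes of the isoprenoid branch passed, Nus1, a subunit of the enzyme that makes dolichol precursors. It had 105.9, 113.0 and 107.3 CPM with the vehicle and 125.0, 116.9 and 123.2 CPM with Δ9-THC, and rose (log2(fold-change) 0.18, SE 0.040, edgeR adjusted p = 0.0498). Of 10 genes for SREBP processing and sterol-dependent degradation, 1 passed, Mbtps2, which encodes the site-2 protease that releases active SREBP. It rose from 85.2, 80.7 and 77.95 CPM to 89.4, 94.5 and 97.5 CPM (0.22, SE 0.048, edgeR adjusted p = 0.0464). Of 16 genes of uptake, storage and efflux, 13 were in the ESC table and 0 passed with edgeR. Of these 13, 3 had unadjusted p-values under 0.05, against 28.7% of all genes. The list medians were 0.024, 0.017 and -0.038.

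Of 15 genes of fatty acid synthesis, 4 passed in ESCs, all lower, where 3.55% of all genes were called lower. The list's median was -0.068. Fasn, the fatty acid synthase gene, had 845.6, 816.3 and 814.9 CPM with the vehicle and 718.5, 744.6 and 744.7 CPM with Δ9-THC (log2(fold-change) -0.15, SE 0.030, edgeR adjusted p = 0.0409). Acss2 (-0.18, adjusted p = 0.0424) and Acly (-0.12, adjusted p = 0.0474), which supply acetyl-CoA, and the desaturase Fads1 (-0.14, adjusted p = 0.0484) fell as well in edgeR's test. These 6 calls in ESCs were lost without any 1 of the 6 libraries and with the GC and length offsets. In EpiLCs 0 genes of the 4 lists passed with edgeR, and 4 had an unadjusted p-value under 0.05 (15.1% of all genes). DESeq2 called 1 (0.634% of all genes).

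Between the cell types, the uptake list held the largest ratio of the neighbouring genes. Soat1, which esterifies cholesterol for storage, had 20.3 to 21.8 CPM in vehicle ESCs and 86.0 to 106.6 CPM in vehicle EpiLCs, a log2 ratio of 2.23, and of 2.39 with Δ9-THC. The lipoprotein receptor genes Lrp8 (1.16) and Vldlr (1.11) were past 1 as well with the vehicle. In fatty acid synthesis, Mid1ip1 (1.24) and Fads2 (1.00) were higher in vehicle EpiLCs and the stearoyl-CoA desaturase gene Scd1 was lower (-1.07). Of the 10 isoprenoid genes and the 10 for SREBP processing, 0 were past 1 in either direction. With the vehicle 11.2% of all genes were past 1 higher and 10.5% lower.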

How the data were processed

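Poly(A) RNA-seq count tables of ESCs and EpiLCs were used, with 3 vehicle and 3 Δ9-THC libraries each. PGCLC libraries were not used here. Per the methods, the authors demultiplexed reads with bcl2fastq 2.19.1.403, aligned them with STAR, kept unique alignments and counted exonic reads without strand in HTSeq (union mode). They removed genes with low counts and adjusted the deposited counts in ComBat-seq for batches that are not named, separately for each cell type. Libraries were made with either of 2 kits, not named for each library. The sources name both mm10 and GRCm39, so gene positions and GC content (GRCm38, GENCODE M21) only describe the genes.

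The deposited counts were tested in R 4.3.3 by the quasi-likelihood test of edgeR 4.0.16 (TMM factors, genes with more than 10 counts in total) in each table, with Benjamini-Hochberg adjustment over all genes and a threshold of 0.05. The interaction was fitted on the genes in both tables. All replicates are described as biological, and p-values measure the spread left after the authors' adjustment. Alternatives were DESeq2 1.42.0, RLE normalization, other count filters, a replicate block, GC and length offsets (natural splines with 5 df) and leaving out each library. The scripts were tested on simulated data.

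The 28 genes and all gene lists were chosen with earlier results of these data known. Full statistics were given for genes called in ESCs, for the 3 highest and 3 lowest log2(fold-change) values or differences of each comparison, and for log2 ratios past 1 between the cell types; other genes are given by values and counts.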

Additional observations from a re-analysis of the deposited data

Results flagged for a closer look

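Npc1 was the 1 result marked for a closer look, because its 3 Δ9-THC libraries lay below all vehicle libraries in ESCs and above all vehicle libraries in EpiLCs. The difference of the effects was 0.50 on the log2 scale. It did not pass in the test of edgeR (Benjamini-Hochberg adjusted p = 0.0644) and passed in DESeq2 (adjusted p = 0.0013). Of all genes in both tables, 1.31% had the same arrangement of libraries, below in ESCs and above in EpiLCs. Over the 19 alternatives the difference ranged from 0.38 to 0.54, and DESeq2 was the only one in which it passed. The edgeR adjusted p-value was 0.0953 to 0.221 without any 1 library and reached 0.999 over all alternatives.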

How the results depend on the processing

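Of 1268 recomputed values, 1106 were classed as unchanged. The values without a count filter were among them, since the authors had already removed genes with low counts. That fit gave the main medians of the 28 genes (-0.11 in ESCs and -0.0040 in EpiLCs). For level ratios between the cell types this class did not require a kept direction. The vehicle ratio of Idi1, for example, crossed 0 within it. For some Δ9-THC effects the class did not require a kept size. In ESCs those of Scap (-0.12 to -0.0073) and Idi1 (0.053 to 0.23) stayed in it under all 13 alternatives. In ESCs the 906 calls among all genes became 5 with the replicate block, 2 with GC and length offsets, 3 with both and 0 to 1 without 1 library, and the 4 calls among the 28 genes and the 6 in the neighbouring lists became 0 under each of these. DESeq2 called 87 genes in EpiLCs and, for the interaction, 133 of all genes, 2 of the 28 and 1 neighbouring gene, and 1 neighbouring gene in EpiLCs. The 4 interaction calls of edgeR became 0 with the block, with the offsets, with both and without any 1 library. The cause was not tested.

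Same-numbered vehicle and Δ9-THC libraries deviated in opposite directions from their group means (Pearson's r across genes -0.987 to -0.977 in ESCs and -0.985 to -0.979 in EpiLCs), and differently numbered ones in the same direction (0.369 to 0.605 and 0.224 to 0.695). The number therefore ties libraries of the adjusted tables, but no label gives them a shared origin. With the replicate block the edgeR adjusted p-values of the 4 genes in ESCs were 0.414 to 0.431.

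With GC and length offsets, alone and with the block, the log2(fold-change) turned in ESCs for Hmgcs1 (-0.050 and -0.050), Mvd (0.0027 and 0.0030), Cyp51 (-0.047 and -0.047), Sc5d (-0.024 and -0.024) and Srebf1 (0.088 and 0.088). In EpiLCs it turned for Hmgcs1 (-0.015 and -0.015), Pmvk (0.041 and 0.041), Lss (-0.097 and -0.097), Cyp51 (-0.0054 and -0.0056), Msmo1 (-0.067 and -0.067), Hsd17b7 (-0.019 and -0.030), Sc5d (-0.047 and -0.047), Srebf1 (0.037 and 0.037) and Abca1 (-0.12 and -0.12).

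Leaving out 1 library turned the sign in ESCs for Fdps (-0.082 to 0.17), Cyp51 (-0.033 to 0.047), Insig2 (-0.090 to 0.0080), Srebf1 (-0.10 to 0.0011) and Npc2 (-0.020 to 0.043). In EpiLCs it did so for Hmgcs1 (-0.017 to 0.073), Pmvk (-0.14 to 0.033), Idi1 (-0.30 to 0.27), Sqle (-0.093 to 0.0012), Lss (-0.037 to 0.031), Msmo1 (-0.035 to 0.051), Hsd17b7 (-0.14 to 0.21), Sc5d (-0.0077 to 0.023), Dhcr7 (-0.12 to 0.018), Insig2 (-0.086 to 0.040), Srebf1 (-0.038 to 0.022), Srebf2 (-0.0090 to 0.085), Npc2 (-0.065 to 0.082) and Abca1 (-0.24 to 0.20), and in the interaction for Idi1 (-0.48 to 0.081). Depth limits mainly Fdps in ESCs and Abca1 in EpiLCs.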
